A study of Homo sapiens with 60 samples.

Results

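The 40 genes described here are interferon-stimulated genes, the genes that a cell turns on when an interferon reaches it. They were taken by name and not by a cut on measured values, but the list was chosen with earlier results of these data known. Each was matched to 1 row of a table of 60675 genes measured in HT29 cells, a line established from a human colorectal adenocarcinoma. DDX58, the gene of the RNA sensor RIG-I, was matched through its newer symbol RIGI. All 40 passed the filter on low counts and are among the 16445 genes tested, so no gene of the list is missing from the counts below.

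The cells had been treated for 24 h with vehicle or with 1 of 7 herbal extracts at a low, a medium and a high dose. Palmul-tang and Sibjeondaebo-tang, both multi-herb formulas, were given as water extracts, called decoctions here. Poria Cocos, Atractylodis Rhizoma, Glycyrrhizae Radix (licorice root), Panax Ginseng and Angelicae Gigantis Radix were given as ethanol extracts of single drugs. The doses were 20, 100 and 500 µg/mL, except for Glycyrrhizae Radix at 14, 70 and 350 µg/mL and Angelicae Gigantis Radix at 12.8, 64 and 320 µg/mL. Each of 19 groups had 3 libraries, vehicle included, and Angelicae Gigantis Radix had 1 library per dose, which gives 60 libraries in 22 groups. The vehicle was DMSO, given as 0.1% in the sample labels and as 2% in the text on the whole series. All groups are 1 established line without any added interferon, virus or nucleic acid in the labels, and nothing in them says whether the replicates are separate cultures. The spread behind the p-values is that between libraries and may be technical.

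Interferons of the type I and lambda families bind receptors that activate the kinases JAK1 and TYK2. A complex that holds STAT2 and IRF9 then forms and binds the interferon-stimulated response element, or ISRE, in the promoters of most genes of the class. Interferon gamma acts instead mainly through another element, the gamma-activated site, and IRF1 is a classic target of that branch. In the gut epithelium lambda interferons are prominent, and a low standing level of these genes is kept without infection.

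Promoter sequence from RefSeq (GRCh38.p14) was at hand for 34 of the 40 genes, in 45 windows that run from 250 bases before to 50 bases after a transcription start. The ISRE core GAAANNGAAA, searched on both strands, was in 28 of these 45 windows (62.2%) and in 1255 of all 35116 RefSeq windows (3.57%). The gamma-activated site TTCNNNGAA was in 11 of the 45 (24.4%) and in 2689 of all windows (7.66%), counted whether or not it overlapped an ISRE core. Some genes called in dose comparisons, among them IRF9, OAS1, DDX58 and SP100, had no match to GAAANNGAAA in their windows. The search took that exact spacing only. The windows of OAS1 and DDX58 hold GAAACGAAA, a closer spacing of the same repeat that was not counted, so no match does not mean no ISRE. The sequences below are 6 promoters of genes that carry the dose differences described further on, picked among those with an ISRE core. Each is written 5′ to 3′ along the gene and ends at the base before the start, with the ISRE cores, read on either strand, in capitals.
IFIT1: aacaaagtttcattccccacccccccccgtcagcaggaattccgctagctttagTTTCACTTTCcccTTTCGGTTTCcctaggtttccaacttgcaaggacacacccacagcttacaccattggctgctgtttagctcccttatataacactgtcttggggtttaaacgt
IFI6: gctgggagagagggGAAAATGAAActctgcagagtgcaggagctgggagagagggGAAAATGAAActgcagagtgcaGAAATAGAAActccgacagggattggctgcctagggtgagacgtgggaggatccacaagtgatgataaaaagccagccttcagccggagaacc
IFI27: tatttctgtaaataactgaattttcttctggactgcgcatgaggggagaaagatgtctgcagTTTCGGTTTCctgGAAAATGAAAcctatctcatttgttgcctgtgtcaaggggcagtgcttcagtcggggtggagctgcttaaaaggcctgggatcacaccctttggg
IFITM3: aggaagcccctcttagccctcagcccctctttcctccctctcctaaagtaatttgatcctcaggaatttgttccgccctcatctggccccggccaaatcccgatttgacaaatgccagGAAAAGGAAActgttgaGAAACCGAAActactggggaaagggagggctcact
DDX60: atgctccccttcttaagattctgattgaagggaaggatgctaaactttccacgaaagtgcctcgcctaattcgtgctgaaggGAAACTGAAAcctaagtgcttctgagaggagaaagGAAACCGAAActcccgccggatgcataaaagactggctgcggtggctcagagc
IFI44L: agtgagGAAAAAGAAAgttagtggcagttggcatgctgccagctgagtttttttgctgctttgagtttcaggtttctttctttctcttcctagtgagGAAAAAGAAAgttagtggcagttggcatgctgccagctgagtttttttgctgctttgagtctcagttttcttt
IFIT1 lies on the plus strand and its stretch is chr10:89392453-89392622, with cores that begin at -116 and -103 from the start. The IFI6 stretch, chr1:27672193-27672362 on the minus strand, holds 3 cores, at -156, -115 and -93. IFI27 (chr14:94110566-94110735, plus strand) has its pair at -108 and -95, separated by few bases as in IFIT1. IFITM3 (chr11:320861-321030, minus strand) has cores at -52 and -35, the closest to the start among the 6. DDX60 (chr4:168318753-168318922, minus strand) and IFI44L (chr1:78620278-78620447, plus strand) have theirs at -88 and -53 and at -164 and -73. In the deposited table these 6 genes carry the Ensembl identifiers ENSG00000185745, ENSG00000126709, ENSG00000165949, ENSG00000142089, ENSG00000137628 and ENSG00000137959, in that order. A match to these letters is a description of the sequence and not a tested binding site.

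The libraries held totals of 19.31 to 29.62 M counts, with a median of 25.05 M (M stands for 1e+06 counts). In the 57 libraries of the groups with replicates, the 10 markers of colon epithelium summed to 11400 to 13900 CPM (counts per 1e+06 counts of the scaled library total), and KRT8 alone had a mean of 6881 CPM. The pan-leukocyte gene PTPRC had 25 counts over the 57 libraries and MS4A1 and HLA-DRA had 0, while the summed immune list stood at 1300 to 1720 CPM. Lysozyme (LYZ), which secretory gut epithelium also makes, had a mean of 1487 CPM of that sum. The 8 markers of fibroblasts and endothelium summed to 2.43 to 4.39 CPM. The share of mitochondrial counts was 10.2% ± 1.36 (SD, n = 3) in vehicle and 6.83% to 8.83% as the mean of the treated groups with replicates. All sample titles, vehicle included, carry the shared label BatchC. Sample names put the decoctions in a set 8, Poria Cocos and Atractylodis Rhizoma in a set 9 and Glycyrrhizae Radix and Panax Ginseng in a set 10, while vehicle carries none of these numbers. A difference from vehicle, or between extracts of different sets, therefore cannot be told apart from a difference between sets, whereas high and low doses of an extract share a set.

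The genes were expressed in HT29 cells without any added interferon, at levels that spanned more than 2 orders of magnitude. PARP14, a mono-ADP-ribosyltransferase, had the highest mean at 148.6 CPM over the 57 libraries, followed by EIF2AK2 (PKR, a kinase that senses double-stranded RNA) at 115.8 CPM and OAS3 at 114.6 CPM. At the other end, RSAD2 (viperin), IFITM1, XAF1, HERC5 and IFI44L had means of 0.247, 0.345, 0.401, 0.508 and 0.555 CPM. In all, 20 of the 40 genes had means over 10 CPM and 5 were under 1 CPM. Per kilobase of exon the order changed: the membrane tether BST2 was highest at 38.8 CPM per kb, then the ubiquitin-like modifier ISG15 at 23.4 and IFITM2 at 16.4, while PARP14 stood at 14.2. Of the interferons themselves, only IFNE was tested, at a mean of 5.43 CPM. Of the others, IFNA1 had the most, 163 counts over the 57 libraries (a mean of 0.115 CPM). IFNL1 had 58 and IFNB1 17, while IFNG and IFNW1 had 0 counts in each library.

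**Figure D1:**
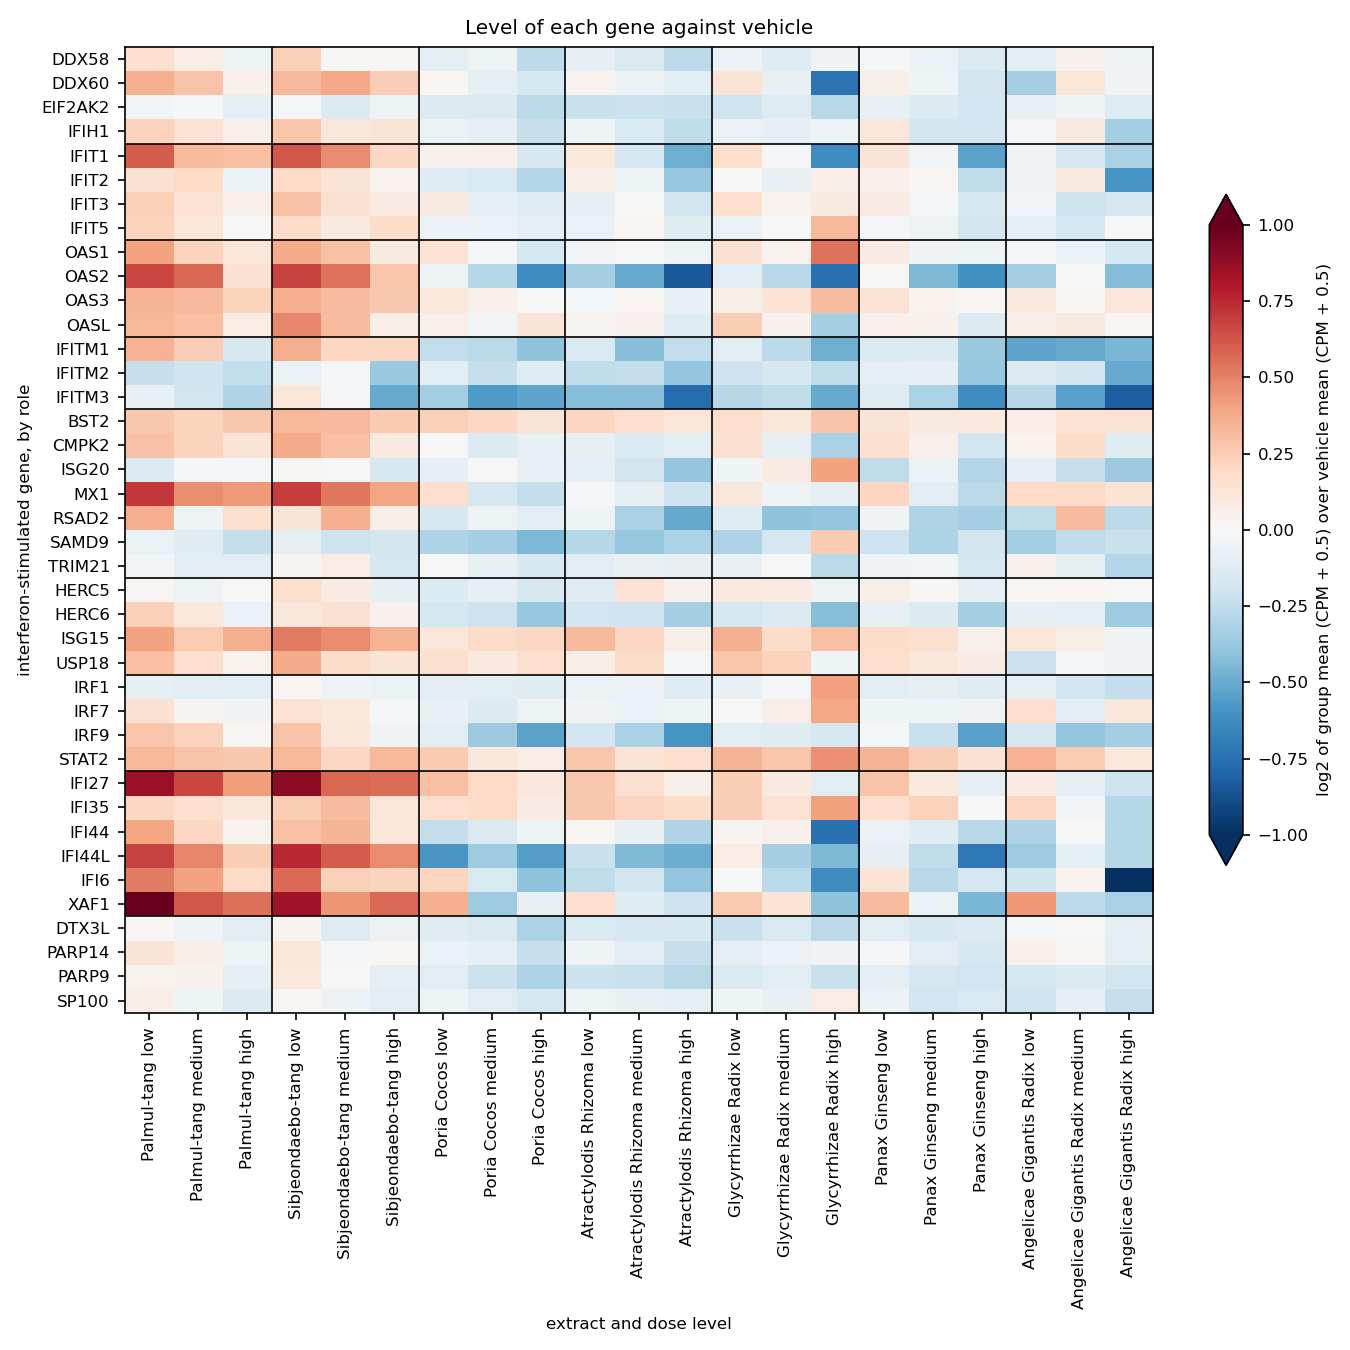
Level of each of the 40 genes against vehicle, by extract and dose. Colour gives log2 of the group mean (CPM + 0.5) over the vehicle mean (CPM + 0.5), cut at 1 in either direction, with rows grouped by role. Red fills most rows of the low-dose decoction columns, and blue is most frequent in the high-dose columns of the ethanol extracts.

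The most frequent sign over the 40 genes was a lower level at the high dose than at the low dose of the same extract. The fitted high against low difference was below 0 in all 6 replicated extracts for 17 of the 40 genes (42.5%, against 6.94% of all tested genes) and in 5 of the 6 for 19 more (47.5%, against 14.8%). No gene of the list was below 0 in fewer than 3 extracts. Of all tested genes, 6.2%, 13.7% and 18.1% were below 0 in 0, 1 and 2 extracts. The group means were in the order low over medium over high for 30 of the 40 genes with Palmul-tang, 29 with Panax Ginseng, 24 with Sibjeondaebo-tang, 23 with Poria Cocos, 22 with Atractylodis Rhizoma and 14 with Glycyrrhizae Radix. Among all tested genes that ordering was met by 16% to 22.9%, depending on the extract. These are orders of means without a test, and the tests follow.

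For a view by library, log2((CPM + 0.5) over the vehicle mean) was taken for each gene and its median over the 40 genes computed. With Palmul-tang the median was 0.24 ± 0.06 at the low dose, 0.12 ± 0.10 at the medium and 0.04 ± 0.03 at the high dose (SD, n = 3). Sibjeondaebo-tang gave 0.262 ± 0.015, 0.185 ± 0.04 and 0.068 ± 0.15. The 3 low-dose Palmul-tang libraries lay above its 3 high-dose libraries, and the same held for Sibjeondaebo-tang, whose high-dose library 1 lay apart at -0.105. The ethanol extracts began near vehicle and ended below it: Poria Cocos went from -0.06 ± 0.03 to -0.19 ± 0.03, Atractylodis Rhizoma from -0.06 ± 0.05 to -0.20 ± 0.01, Glycyrrhizae Radix from 0.01 ± 0.01 to -0.13 ± 0.07 and Panax Ginseng from 0.04 ± 0.08 to -0.18 ± 0.02. In each of these 4 the low and high libraries did not overlap. The vehicle libraries themselves were at -0.05, 0.09 and -0.05, and the median over all tested genes lay between -0.011 and 0.004 in every library.

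**Figure D2:**
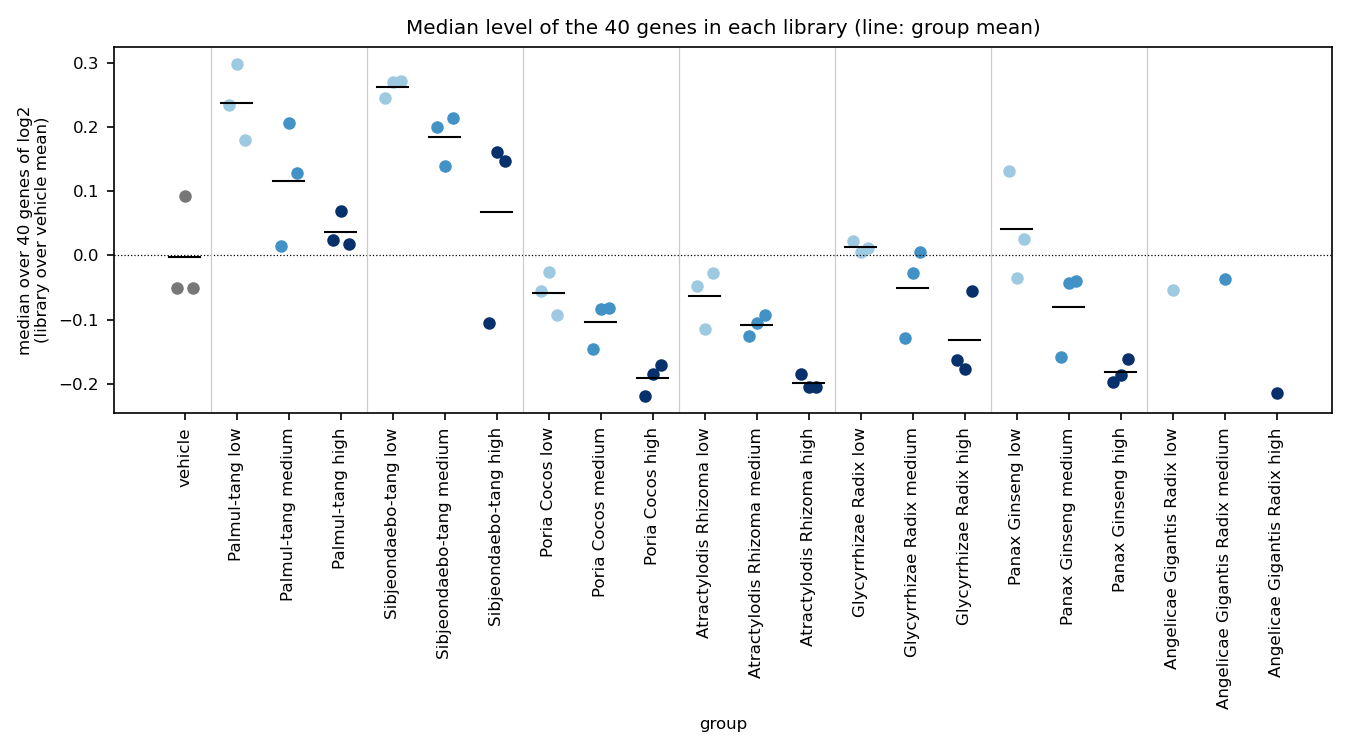
Median over the 40 genes of log2 of (CPM + 0.5) over the vehicle mean, 1 point per library, with the group mean as a line and a darker blue for a higher dose. Low-dose decoction libraries lie between 0.18 and 0.299, and the high-dose libraries of the ethanol extracts with replicates lie between -0.219 and -0.055.

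Gene by gene, few of these dose differences passed the test within 1 decoction. With Palmul-tang, edgeR's quasi-likelihood test called 0 of the 40 genes between 500 and 20 µg/mL, against 0.103% of all tested genes called higher and 0.0486% called lower. At an unadjusted p below 0.05, 19 of the 40 were lower and 0 higher, against 3.27% and 3.31% of all tested genes, and DESeq2 also called 0. The median log2 fold change of the list was -0.215, against -0.001 over all tested genes. With Sibjeondaebo-tang 1 gene was called, IFITM3, which fell, against 0.176% of all tested genes called lower and 0.195% called higher. There 15 of the 40 were lower at an unadjusted p below 0.05 and 0 higher, against 5.79% and 5.25% of all tested genes. DESeq2 called 2, and the median was -0.20. The IFITM3 call was lost without library 3 of the low-dose group and in a fit of these 2 groups alone, and without library 2 of the high-dose group there were 3 calls.

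Pooling the 2 decoctions, 8 of the 40 genes fell from low to high dose and 0 rose, against 0.566% and 0.584% of all tested genes. The 8 were IFITM3, IFI27, IFIT1, OASL, IRF9, OAS1, DDX58 and SP100. All 40 fitted changes were below 0, against 51.9% of all tested genes, with a median of -0.206 against -0.003 over all tested genes. At an unadjusted p below 0.05, 28 were lower and 0 higher, against 5.25% and 5.58% of all tested genes. DESeq2 called 10, all lower. Without the libraries numbered 1, 2 or 3 the count was 1, 2 or 3.

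Pooling the 4 replicated ethanol extracts, 22 of the 40 genes fell and 2 rose, against 10.1% of all tested genes called lower and 11.3% called higher. XAF1, an inhibitor of the XIAP survival protein, RSAD2, IFI44L, OAS2 and IFIT1 had the largest falls, at -1.94, -1.06, -0.89, -0.71 and -0.65 on the log2 scale. Of these, XAF1, RSAD2 and IFI44L had means of 0.401, 0.247 and 0.555 CPM, so their falls rest on few counts. IRF1 and SAMD9, an antiviral restriction factor, were the 2 that rose, by 0.10 and 0.11. Within single extracts both were called higher with Glycyrrhizae Radix alone. The median over the list was -0.128 against -0.003 over all tested genes. Without the libraries numbered 1 the count was 15. Without the Glycyrrhizae Radix groups it was 17, of which 15 were among the 24, against 13.8% of all tested genes called in either direction.

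Within single ethanol extracts, IFI6, IRF9 and OAS1 fell with Poria Cocos at the high dose and 0 of the 40 genes rose, against 0.839% of all tested genes called lower and 1.02% called higher. With Atractylodis Rhizoma RSAD2, IFIT1, IFIT2, IRF9 and PARP14 fell and 0 rose, against 2.01% and 1.93%. With Panax Ginseng IFIT1, IRF9 and IFITM3 fell and 0 rose, against 1.23% and 1.29%. In these 3 extracts 14, 12 and 16 of the 40 were lower at an unadjusted p below 0.05, with 0 higher in each. Among all tested genes 6.73%, 7.66% and 6.8% were lower and 6.26%, 7.52% and 6.84% higher at that cut. DESeq2 called 4, 4 and 3 of the 40 genes, all lower. The medians were -0.16, -0.16 and -0.23. Single libraries moved these counts: for Poria Cocos the count was 0 without high-dose library 1 or 2 or low-dose library 1 and 1 without high-dose library 3 or low-dose library 2. For Atractylodis Rhizoma it was 0 without high-dose library 3, 3 without low-dose library 1 and 2 without any other, and for Panax Ginseng it was 1 without low-dose library 1.

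With Glycyrrhizae Radix the calls went in both directions: 10 of the 40 genes fell from 14 to 350 µg/mL and 7 rose, against 10.9% and 14% of all tested genes. XAF1, DDX60, IFIT1, IFI44, OAS2, CMPK2, IFI6, OASL, IFI27 and TRIM21 fell, and SAMD9, ISG20, IRF1, IFIT5, OAS1, IRF7 and OAS3 rose. The risers, at 17.5% of the list, stood close to the share among all genes, and the 25% that fell stood above it. Leaving out 1 library of these groups gave 12 to 17 called genes. Of the 10 epithelial markers, VIL1 (-0.63) and GPA33 (-0.91) fell and KRT20 (0.78) and CDH1 (0.14) rose between the same groups, and of the 4 tested immune markers CD68 rose (0.60). The part of such shifts in the values of the 40 genes was not tested.

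**Figure D3:**
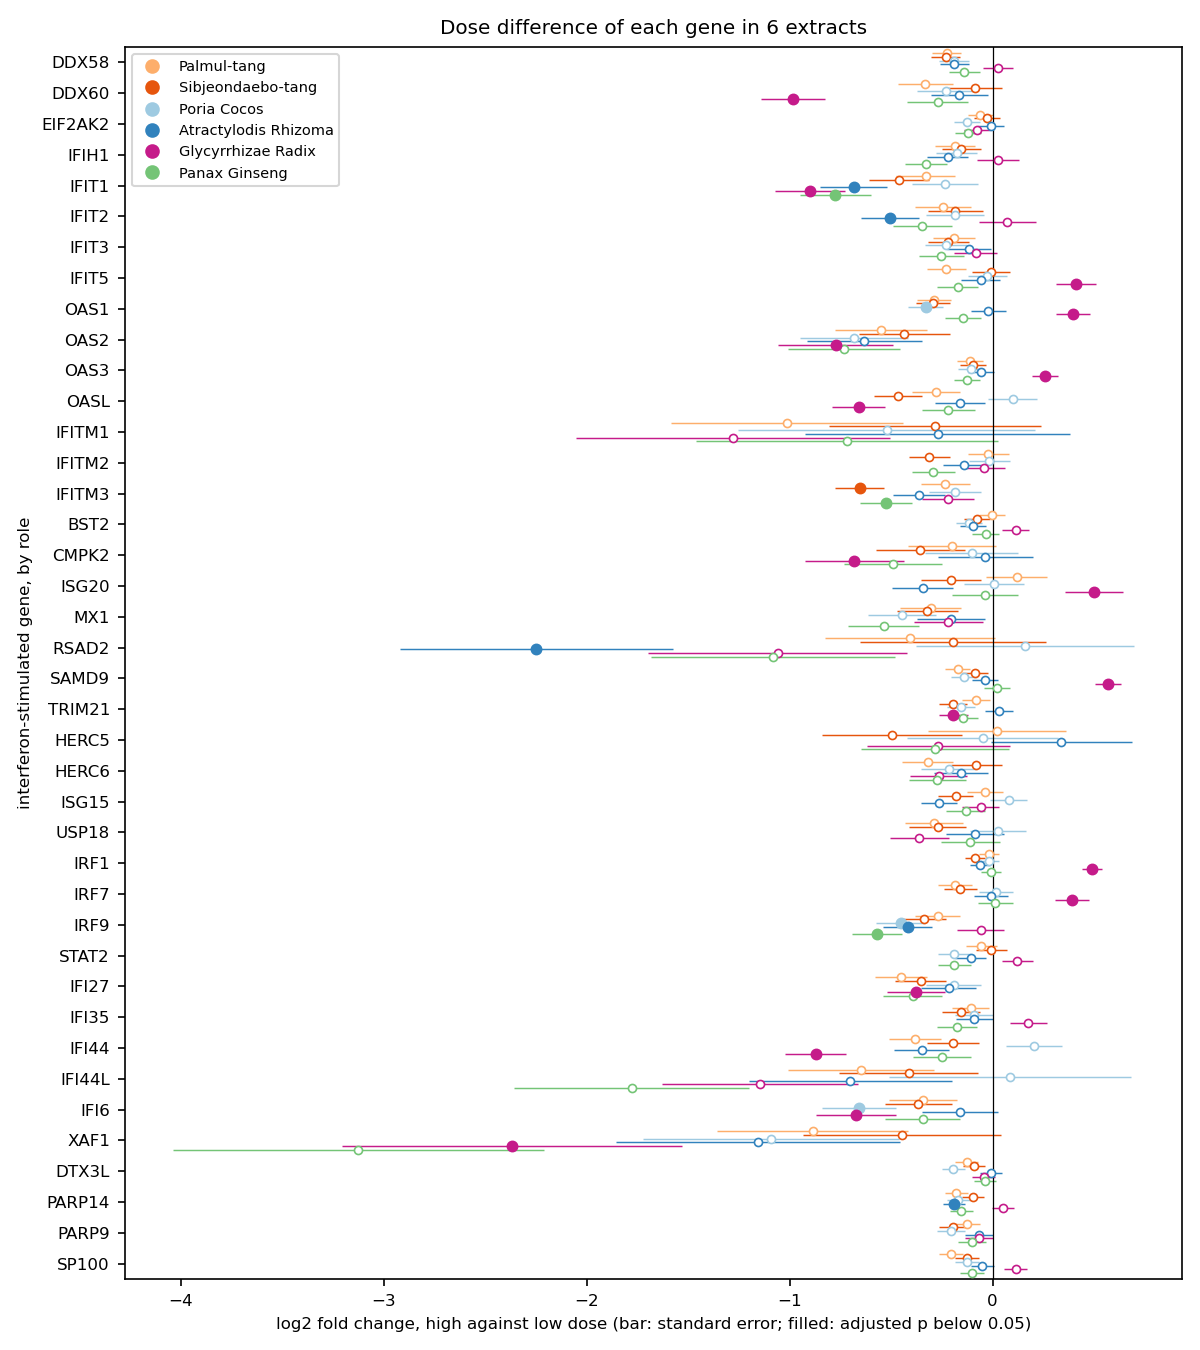
Log2 fold change of each of the 40 genes between the high and the low dose of 6 extracts, with its standard error as a bar and filled points for an adjusted p below 0.05. Most points lie left of 0, and the filled points right of 0 are those of Glycyrrhizae Radix.

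**Figure D4:**
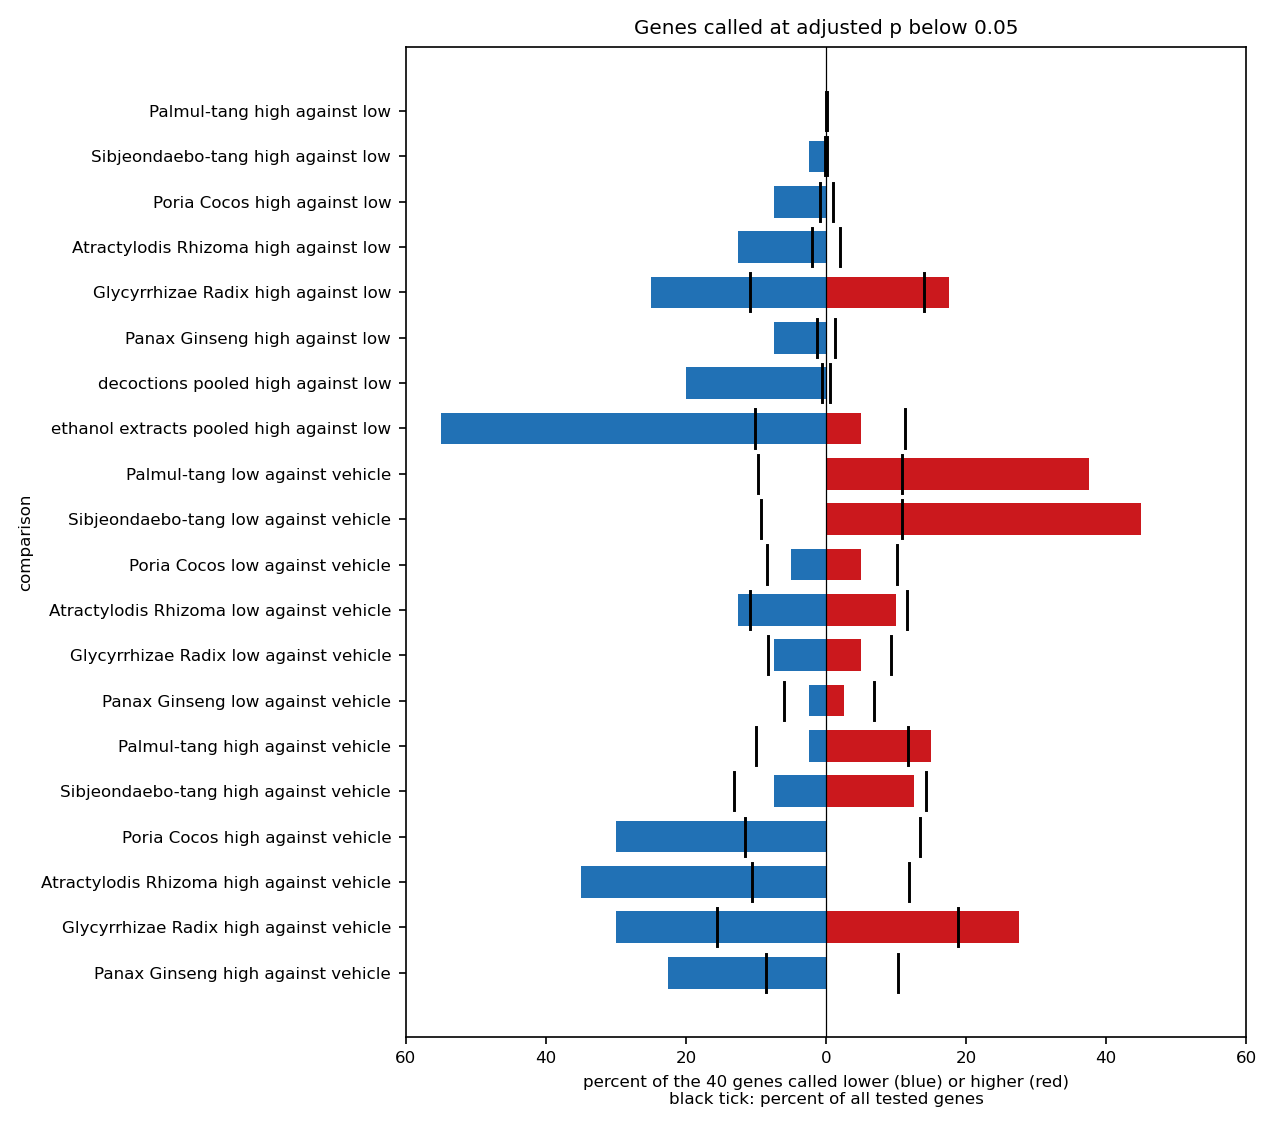
Percent of the 40 genes called higher (red, right) or lower (blue, left) at an adjusted p below 0.05 in 20 comparisons, with a black tick at the percent of all tested genes called in that direction. The blue bars pass their ticks in the pooled dose comparisons and at the high doses of ethanol extracts against vehicle, and the longest red bars are those of the low doses of the decoctions.

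The transcription factors held both patterns. IRF9, the DNA-binding subunit of the complex that binds the ISRE, was at 10.4, 13.8 and 10.8 CPM in the vehicle libraries. With Poria Cocos it was at 12.4, 10.4 and 9.60 CPM at the low dose and 8.04, 8.07 and 7.55 at the high dose, a change of -0.45 (SE 0.12, adjusted p = 0.031). Every high-dose library lay below every low-dose library. With Atractylodis Rhizoma IRF9 was at 10.3, 10.6 and 9.63 CPM and then 8.48, 6.60 and 7.73 CPM, a change of -0.42 (SE 0.12, adjusted p = 0.032). With Panax Ginseng it was at 13.3, 10.6 and 10.9 CPM and then 8.05, 7.37 and 8.11 CPM, a change of -0.57 (SE 0.12, adjusted p = 0.0033). Again neither pair of groups overlapped. In the decoctions IRF9 went from 14.0, 16.2 and 12.8 to 12.5, 12.1 and 11.1 CPM with Palmul-tang and from 13.0, 16.8 and 13.3 to 11.2, 12.5 and 10.5 CPM with Sibjeondaebo-tang, and the pooled change was -0.31 (SE 0.08, adjusted p = 0.034). Both pairs were separate. Glycyrrhizae Radix was the exception, with 11.2, 11.8 and 9.29 CPM at the low and 9.91, 10.4 and 10.6 at the high dose, groups that overlapped, and a change of -0.06 (SE 0.12, adjusted p = 0.78).

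IRF1, which turns on interferon gamma targets, was at 35.6, 36.5 and 32.4 CPM in vehicle and at 32.2, 35.1 and 31.9 CPM with low-dose Glycyrrhizae Radix, but at 45.3, 46.6 and 47.3 CPM with the high dose, a change of 0.49 (SE 0.05, adjusted p = 1.2e-11). The mean of the medium dose, 34.6 ± 1.75 CPM, lay between. In the other 5 extracts the change ran from -0.09 to -0.01, none called. IRF7, the factor that amplifies type I interferon production, went from 27.4, 25.2 and 26.6 to 36.0, 32.2 and 35.7 CPM with Glycyrrhizae Radix, separate groups that differed by 0.39 (SE 0.08, adjusted p = 0.00024). STAT2 was called in no dose comparison, its changes running from -0.19 with Poria Cocos to 0.12 with Glycyrrhizae Radix. It was the only one of the 40 genes called higher than vehicle at the low dose of all 6 replicated extracts. Those 6 calls share the same vehicle libraries and so are not independent, and a difference between sets cannot be told apart.

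**Figure D5:**
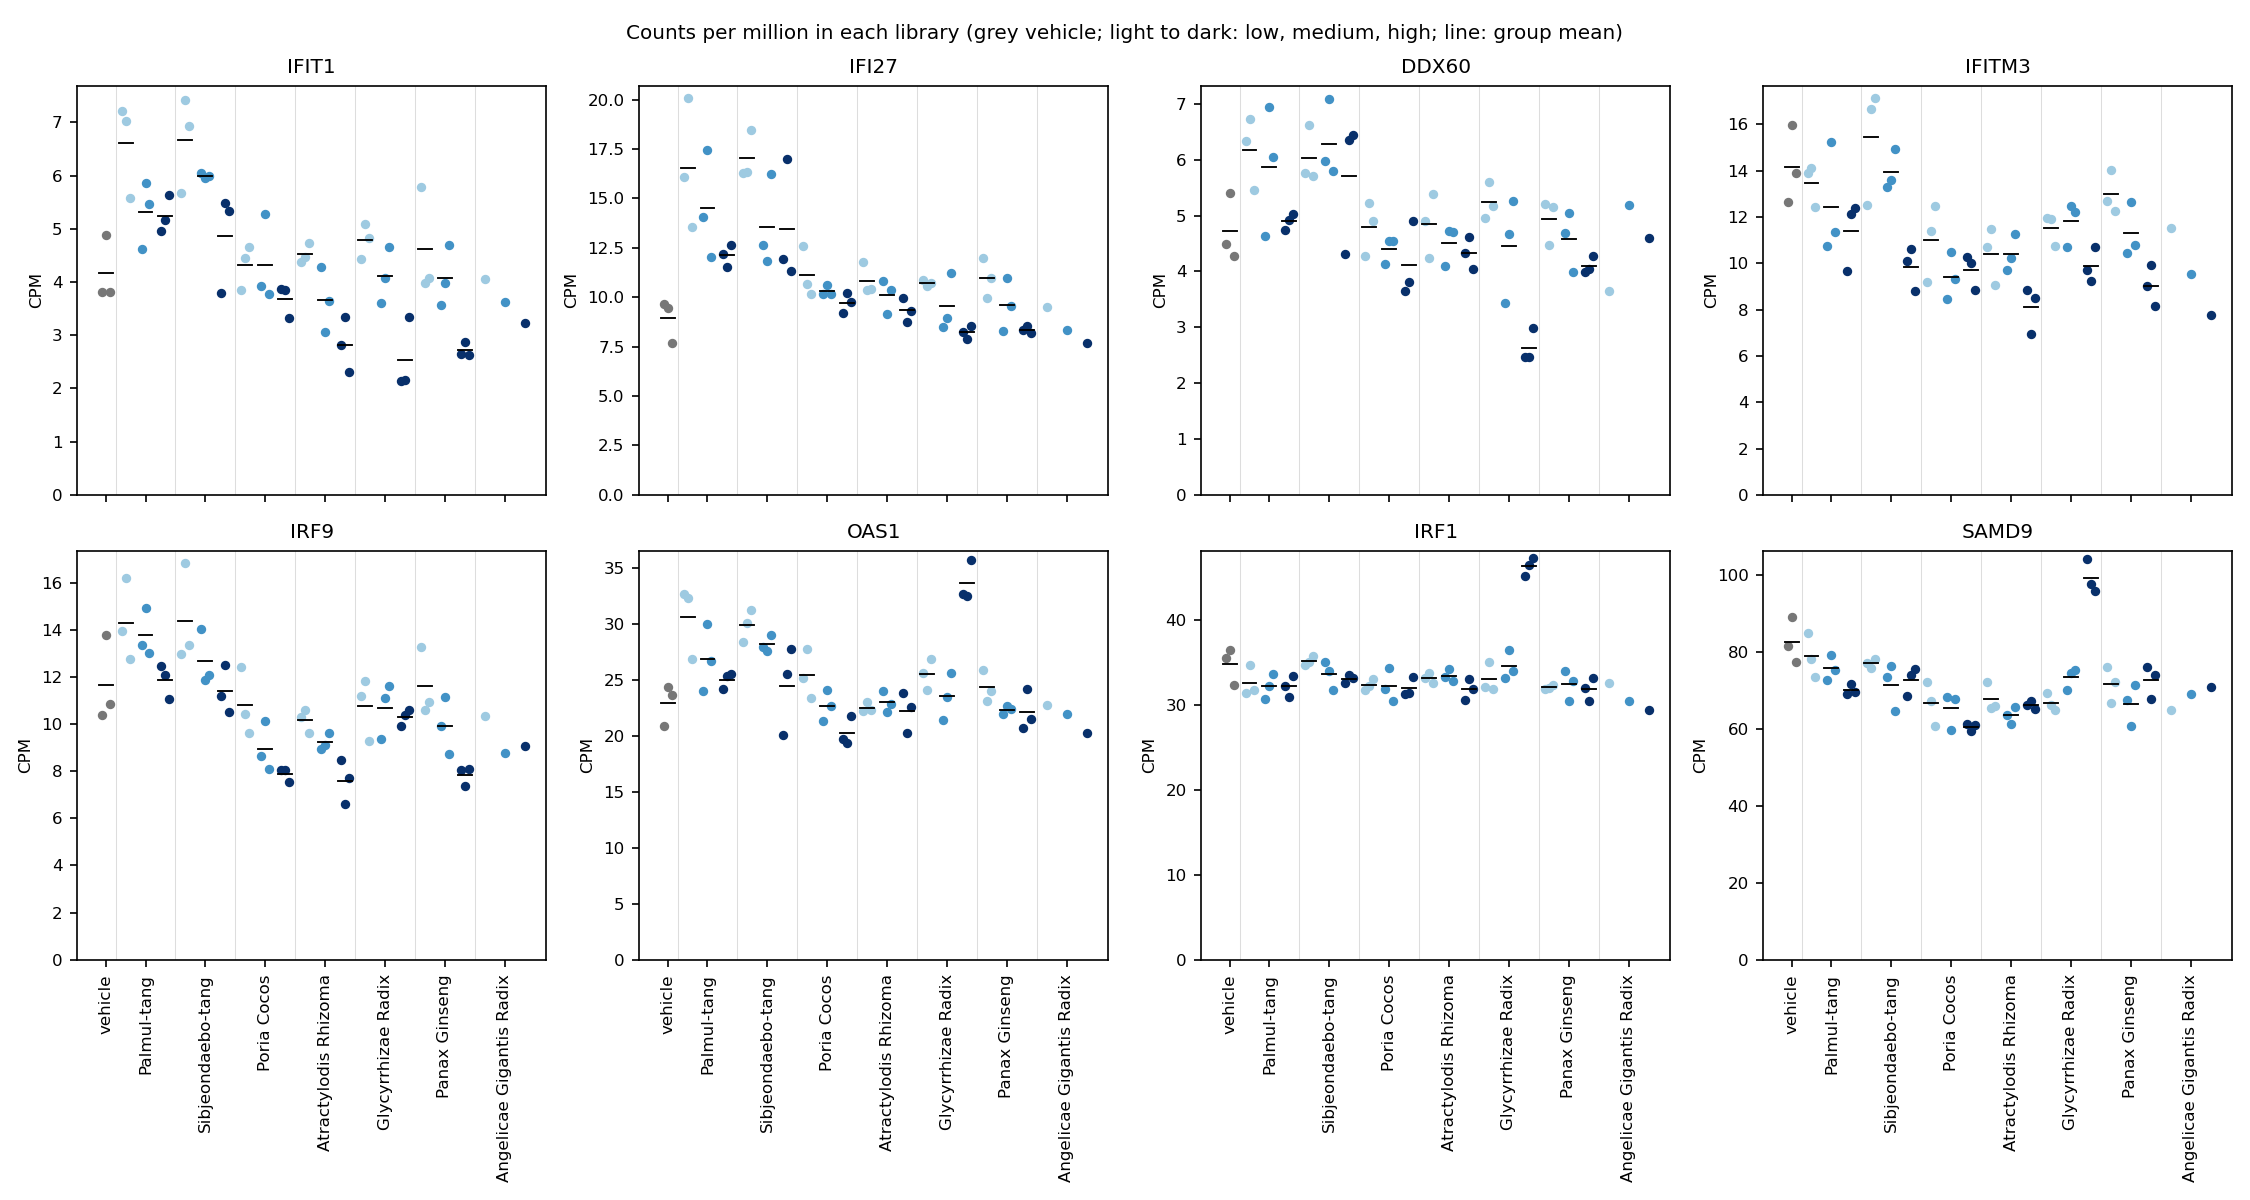
CPM in each library for 8 of the genes, with vehicle in grey, a darker blue for a higher dose and the group mean as a line. IRF9 and IFIT1 are lower at the high than at the low dose of most extracts, whereas IRF1 and SAMD9 are highest in the high-dose Glycyrrhizae Radix libraries.

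Of the sensors of viral RNA, DDX58 and IFIH1 (MDA5) detect viral RNA in the cytoplasm and signal through MAVS, DDX60 is a helicase of the same pathway, and EIF2AK2 halts translation. DDX60 was at 4.49, 5.40 and 4.28 CPM in vehicle. With Glycyrrhizae Radix it went from 4.96, 5.60 and 5.18 CPM to 2.47, 2.46 and 2.99 CPM, a change of -0.98 (SE 0.16, adjusted p = 2.3e-06). The high-dose libraries were below all vehicle and low-dose libraries. In the other 5 extracts the change of DDX60 ran from -0.33 with Palmul-tang to -0.09 with Sibjeondaebo-tang and was not called. DDX58 fell in both pooled comparisons, at -0.23 (SE 0.05, adjusted p = 0.0079) in the decoctions and -0.12 (SE 0.04, adjusted p = 0.012) in the ethanol extracts. IFIH1 fell in the pooled ethanol extracts, at -0.18 (SE 0.05, adjusted p = 0.0099). EIF2AK2, the most abundant of the sensors, was at 122, 127 and 132 CPM in vehicle, 106, 112 and 114 CPM with low-dose and 105, 106 and 103 CPM with high-dose Glycyrrhizae Radix. Its dose changes, from -0.13 with Poria Cocos to -0.01 with Atractylodis Rhizoma, were not called in any extract or pool.

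The IFIT proteins bind viral RNA and block its translation, and IFIT1, which recognises RNA caps that lack a methyl group, was called in 5 of the 8 dose comparisons (6 extracts and 2 pools), as was IRF9. It was at 3.81, 4.89 and 3.81 CPM in vehicle. With Atractylodis Rhizoma it went from 4.37, 4.48 and 4.74 CPM at the low dose to 2.82, 3.34 and 2.31 CPM at the high dose, a change of -0.68 (SE 0.17, adjusted p = 0.0083). With Glycyrrhizae Radix it went from 4.43, 5.10 and 4.82 to 2.14, 2.15 and 3.33 CPM, a change of -0.90 (SE 0.17, adjusted p = 6.7e-05). With Panax Ginseng it went from 5.78, 3.98 and 4.08 to 2.64, 2.88 and 2.64 CPM, a change of -0.77 (SE 0.18, adjusted p = 0.0057). In each of these 3 extracts the high-dose libraries were all below the low-dose libraries. Palmul-tang gave 7.22, 7.02 and 5.58 CPM at the low and 4.95, 5.17 and 5.63 at the high dose, which overlapped. Sibjeondaebo-tang gave 5.68, 7.42 and 6.92 and then 3.79, 5.49 and 5.34 CPM, which did not, and Poria Cocos gave 3.85, 4.45 and 4.65 and then 3.86, 3.85 and 3.31 CPM, which overlapped by a small margin. The pooled changes were -0.40 (SE 0.10, adjusted p = 0.043) in the decoctions and -0.65 (SE 0.09, adjusted p = 3.8e-08) in the ethanol extracts.

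IFIT2 fell with Atractylodis Rhizoma, at -0.51 (SE 0.14, adjusted p = 0.027), and in the pooled ethanol extracts, at -0.24 (SE 0.07, adjusted p = 0.011), where IFIT3 also fell, at -0.17 (SE 0.05, adjusted p = 0.016). IFIT5 went the other way with Glycyrrhizae Radix, from 6.85, 6.06 and 7.95 CPM to 9.62, 9.94 and 8.40 CPM, a rise of 0.41 (SE 0.10, adjusted p = 0.0009). Its groups did not overlap either. So within this family of 4 neighbouring, related genes, IFIT1 fell and IFIT5 rose in the same 3 libraries, while IFIT2 and IFIT3 changed there by 0.07 (SE 0.14) and -0.08 (SE 0.11), not called. Reads shared between such relatives are divided by an estimate in the deposited counts.

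The OAS enzymes make the 2′-5′ oligoadenylates that activate RNase L, and their 4 members split in the same way. OAS1 was at 20.9, 24.3 and 23.6 CPM in vehicle, and with Glycyrrhizae Radix it went from 25.6, 24.1 and 26.8 CPM to 32.6, 32.4 and 35.7 CPM, a rise of 0.40 (SE 0.08, adjusted p = 0.00023). With Poria Cocos it fell, from 25.2, 27.8 and 23.4 CPM to 19.7, 19.3 and 21.7 CPM, a change of -0.33 (SE 0.09, adjusted p = 0.03). Neither pair of groups overlapped. In the pooled decoctions OAS1 fell, at -0.29 (SE 0.06, adjusted p = 0.0034), with 32.6, 32.3 and 26.8 CPM at low and 24.2, 25.4 and 25.5 at high dose for Palmul-tang and 28.4, 30.1 and 31.2 and then 20.0, 25.5 and 27.7 CPM for Sibjeondaebo-tang, each pair separate. OAS3 was at 98.1, 107 and 106 CPM in vehicle and rose with Glycyrrhizae Radix from 107, 111 and 106 to 122, 134 and 132 CPM, at 0.26 (SE 0.06, adjusted p = 0.0017).

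OAS2 was scarcer, at 3.03, 4.28 and 2.12 CPM in vehicle, and its fitted change was below 0 in all 6 extracts. It fell with Glycyrrhizae Radix from 2.69, 3.23 and 2.73 CPM to 1.11, 1.49 and 2.43 CPM, at -0.77 (SE 0.28, adjusted p = 0.039). The other ethanol extracts gave 3.43, 3.43 and 2.20 and then 1.89, 2.38 and 1.33 CPM for Poria Cocos, 2.17, 2.01 and 2.98 and then 1.64, 1.59 and 1.38 CPM for Atractylodis Rhizoma and 3.43, 2.66 and 3.30 and then 1.80, 2.12 and 1.74 CPM for Panax Ginseng. The last 2 pairs were separate and the first overlapped, and the pooled change was -0.71 (SE 0.14, adjusted p = 0.0001). OASL, which lacks the enzyme activity of the others and boosts RIG-I signalling, fell with Glycyrrhizae Radix at -0.66 (SE 0.13, adjusted p = 8.3e-05), in the pooled decoctions at -0.37 (SE 0.08, adjusted p = 0.011) and in the pooled ethanol extracts at -0.24 (SE 0.06, adjusted p = 0.0047).

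The IFITM proteins sit in cell and endosome membranes and block virus entry. IFITM3 was at 12.6, 16.0 and 13.9 CPM in vehicle. Sibjeondaebo-tang gave 12.5, 16.7 and 17.2 CPM at the low and 10.1, 10.6 and 8.80 CPM at the high dose, a change of -0.66 (SE 0.12, adjusted p = 0.0022). Panax Ginseng gave 12.7, 14.0 and 12.2 and then 9.02, 9.94 and 8.16 CPM, a change of -0.53 (SE 0.13, adjusted p = 0.014). In both extracts the groups were separate. The pooled changes were -0.44 (SE 0.09, adjusted p = 0.0019) in the decoctions and -0.32 (SE 0.06, adjusted p = 0.00012) in the ethanol extracts. IFITM2 had changes between -0.31 and -0.02, none called. IFITM1 was at 0 counts in 4 of the 57 libraries and is too scarce to read at this depth. The 3 genes are near-identical in parts, so reads may have been divided between them.

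Among the other antiviral effectors, RSAD2 and CMPK2, neighbours that together yield a chain-terminating nucleotide, were both scarce. RSAD2 had 6, 9 and 2 counts in the vehicle libraries, 4, 4 and 13 with low-dose and 1, 1 and 2 with high-dose Atractylodis Rhizoma, a change of -2.25 (SE 0.67, adjusted p = 0.045) that rests on these few counts. In the pooled ethanol extracts it fell, at -1.06 (SE 0.31, adjusted p = 0.01). CMPK2 fell with Glycyrrhizae Radix at -0.68 (SE 0.24, adjusted p = 0.034) and in the pooled ethanol extracts at -0.33 (SE 0.12, adjusted p = 0.041). MX1, a GTPase that blocks viral ribonucleoproteins, fell in the pooled ethanol extracts at -0.35 (SE 0.09, adjusted p = 0.0016) and was called in no single extract.

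SAMD9 was at 81.4, 89.1 and 77.4 CPM in vehicle and at 69.4, 66.1 and 64.9 CPM with low-dose Glycyrrhizae Radix, and reached 104, 97.7 and 95.7 CPM at the high dose, a rise of 0.57 (SE 0.06, adjusted p = 4e-10). The exonuclease gene ISG20 went from 3.26, 3.23 and 2.85 to 3.74, 4.92 and 4.59 CPM, a rise of 0.50 (SE 0.14, adjusted p = 0.0072). In both genes the high-dose libraries lay above the low-dose libraries. TRIM21, an antibody receptor of the cytosol, fell with Glycyrrhizae Radix at -0.19 (SE 0.07, adjusted p = 0.04). BST2, the tether that holds budding virus at the membrane, was called in no dose comparison, its changes running from -0.12 with Poria Cocos to 0.11 with Glycyrrhizae Radix.

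The ISG15 system attaches ISG15 to proteins (HERC5 is the human ligase, HERC6 its relative) and removes it (USP18). None of the 4 was called in the dose comparison of a single extract, and HERC6 alone fell in a pool, at -0.23 (SE 0.07, adjusted p = 0.013) in the ethanol extracts. ISG15 stood at 24.5 ± 0.767 CPM with low-dose and 23.9 ± 0.537 CPM with high-dose Palmul-tang, and at 23.7 ± 0.928 and 22.8 ± 1.66 CPM with Glycyrrhizae Radix. Each pair of means differs by less than its larger SD, and USP18 had its largest change, -0.36, with Glycyrrhizae Radix, not called.

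Of the IFI genes and XAF1, 5 of the 6 fell in the pooled ethanol extracts, IFI35 being the exception. IFI27, a small membrane protein often used as a marker of interferon exposure, was at 9.66, 9.47 and 7.67 CPM in vehicle. With Glycyrrhizae Radix it went from 10.9, 10.6 and 10.7 CPM to 8.26, 7.89 and 8.53 CPM, a change of -0.38 (SE 0.14, adjusted p = 0.045). The decoctions held the highest IFI27 means at each dose, with 16.1, 20.1 and 13.6 CPM at low and 12.2, 11.5 and 12.7 CPM at high dose for Palmul-tang and 16.3, 16.4 and 18.5 and then 11.9, 17.0 and 11.4 CPM for Sibjeondaebo-tang. The first pair was separate, the second overlapped, and the pooled change was -0.40 (SE 0.09, adjusted p = 0.0087). Poria Cocos gave 12.6, 10.7 and 10.2 and then 9.22, 10.2 and 9.76 CPM, Atractylodis Rhizoma 11.8, 10.4 and 10.4 and then 9.97, 8.77 and 9.31 CPM, and Panax Ginseng 12.0, 9.94 and 11.0 and then 8.35, 8.53 and 8.21 CPM. The last 2 pairs were separate, and the pooled ethanol change was -0.30 (SE 0.07, adjusted p = 0.0012).

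IFI6, a relative of IFI27 that protects cells from apoptosis, was at 6.49, 6.26 and 6.72 CPM in vehicle. It fell with Poria Cocos from 10.5, 5.91 and 6.39 CPM to 4.90, 4.53 and 4.94 CPM, at -0.66 (SE 0.18, adjusted p = 0.04), where low-dose library 1 lay far above the other 2. With Glycyrrhizae Radix it fell from 6.59, 7.22 and 5.61 CPM to 3.33, 3.64 and 5.11 CPM, at -0.68 (SE 0.20, adjusted p = 0.008). Both pairs were separate, and the pooled ethanol change was -0.46 (SE 0.09, adjusted p = 0.00019). IFI44 fell with Glycyrrhizae Radix from 5.64, 4.95 and 4.86 CPM to 2.67, 2.36 and 3.38 CPM, at -0.87 (SE 0.15, adjusted p = 8.6e-06). Its neighbour IFI44L was scarcer, at 8, 14 and 10 counts in vehicle, and the pooled ethanol change was -0.89 (SE 0.28, adjusted p = 0.015). That call was lost without the Glycyrrhizae Radix groups and without the libraries numbered 1 or 2.

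XAF1 held few counts. It had 3, 11 and 1 counts in the vehicle libraries, 25, 31 and 31 with low-dose and 10, 22 and 13 with high-dose Palmul-tang. With Glycyrrhizae Radix it had 12, 8 and 9 counts at the low and 3, 0 and 2 at the high dose, a change of -2.37 (SE 0.84, adjusted p = 0.032), and with Panax Ginseng 16, 12 and 4 and then 0, 1 and 2, a fitted -3.13 (SE 0.92, adjusted p = 0.051). Neither pair overlapped. A library with 0 counts allows up to 3 counts, and these numbers cover counting error only. IFI35, a partner of NMI in cytokine control, was called in no dose comparison.

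The last group holds SP100, a scaffold of PML nuclear bodies, and the ADP-ribosylation genes PARP9, PARP14 and DTX3L. PARP14 was at 155, 154 and 153 CPM in vehicle, and with Atractylodis Rhizoma it went from 143, 149 and 157 to 124, 137 and 133 CPM, a change of -0.19 (SE 0.06, adjusted p = 0.038). The groups were separate though the change was small. PARP14 and PARP9 fell in the pooled ethanol extracts, at -0.12 (SE 0.03, adjusted p = 0.0016) and -0.11 (SE 0.03, adjusted p = 0.016), and SP100 in the pooled decoctions, at -0.17 (SE 0.04, adjusted p = 0.027). DTX3L, the ubiquitin ligase that pairs with PARP9, had changes from -0.19 to -0.01, none called.

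Whether the dose difference depended on the extract was tested directly. Over the 6 replicated extracts, the dose difference varied for 10 of the 40 genes, against 12.4% of all tested genes: IRF1 (adjusted p = 8.9e-09), SAMD9 (2.5e-08), OAS1 (2.1e-05), IRF7 (0.003), IFI44 (0.004), IFIT5 (0.0071), OAS3 (0.0078), DDX60 (0.021), OASL (0.024) and ISG20 (0.041). These p-values are from edgeR's quasi-likelihood test with Benjamini-Hochberg adjustment over all tested genes. All 10 are among the 17 genes called in Glycyrrhizae Radix. Among the other 5 extracts alone, a comparison added after the data had been seen, edgeR called 0 of the 40 genes and 0.426% of all tested genes, with 2 of the 40 at an unadjusted p below 0.05. Without the libraries numbered 1, 2 or 3 the 10 became 5, 3 or 6.

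The mean dose difference of the decoctions was below that of the ethanol extracts for 4 of the 40 genes and above it for 0, against 2.41% and 1.18% of all tested genes. The 4 were IRF7 (-0.28, SE 0.07, adjusted p = 0.017), OAS1 (-0.27, SE 0.07, adjusted p = 0.024), SAMD9 (-0.23, SE 0.06, adjusted p = 0.0057) and IRF1 (-0.16, SE 0.04, adjusted p = 0.024), each a riser with Glycyrrhizae Radix. At an unadjusted p below 0.05, 5 of the 40 genes were lower and 1 higher, against 7.37% and 5.65% of all tested genes. DESeq2 called 4, all lower. With the Glycyrrhizae Radix groups left out, again chosen after seeing the data, edgeR called 0 of the 40 genes and 0.407% of all tested genes, with 2 of the 40 at an unadjusted p below 0.05. Leaving out the libraries numbered 1, 2 or 3 gave 0, 1 or 2 calls.

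The ISRE core was found among the genes that rose with Glycyrrhizae Radix and among those that fell. It was in a promoter of 4 of the 6 risers with a window, and of 6 of the 8 that fell with a window. Both shares were near that of the whole list, 24 of the 34 genes with a window. Among genes that fell in the pools, it was in 3 of 7 for the decoctions and 14 of 19 for the ethanol extracts. OAS1 and DDX58, whose closer spacing of the repeat was not counted, are among the 7. In the promoters printed above, which were picked for holding a core, IFIT1, IFI6, IFI27 and DDX60 are genes that fell with Glycyrrhizae Radix, with 2 or 3 cores each.

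At the low dose of the decoctions the calls against vehicle all pointed up. With Palmul-tang 15 of the 40 rose and 0 fell, against 10.8% and 9.67% of all tested genes, and with Sibjeondaebo-tang 18 rose and 0 fell, against 10.8% and 9.26%. At an unadjusted p below 0.05, 23 were higher and 1 lower with Palmul-tang, against 16.6% and 15.3% of all tested genes. With Sibjeondaebo-tang 23 were higher and 0 lower at that cut, against 16.7% and 14.9%. DESeq2 called 14 and 17 of the 40 in the 2 decoctions, all higher. The median log2 fold changes were 0.264 and 0.307, against 0.005 over all tested genes in both. All 4 OAS genes and 5 of the 6 genes of the IFI and XAF1 group rose with each decoction.

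The largest of these rises among genes at 1 CPM or more in the higher group were, with Palmul-tang, XAF1 at 2.15 (SE 0.57, adjusted p = 0.0052), IFI44L at 1.10 (SE 0.39, adjusted p = 0.039), IFI27 at 0.89 (SE 0.14, adjusted p = 6.5e-06), MX1 at 0.75 (SE 0.16, adjusted p = 0.0006) and OAS2 at 0.75 (SE 0.24, adjusted p = 0.02). For MX1 the vehicle libraries had 5.27, 6.72 and 5.08 CPM, the low-dose Palmul-tang libraries 9.55, 10.5 and 8.78 CPM and the low-dose Sibjeondaebo-tang libraries 9.98, 10.7 and 7.90 CPM. Both low-dose groups lay above vehicle in every library. With Sibjeondaebo-tang IFI44L rose by 1.21 (SE 0.39, adjusted p = 0.021), IFI27 by 0.93 (SE 0.14, adjusted p = 2.3e-06), OAS2 by 0.75 (SE 0.24, adjusted p = 0.02), MX1 by 0.74 (SE 0.16, adjusted p = 0.00074) and IFIT1 by 0.68 (SE 0.16, adjusted p = 0.0013). For IFI27 and IFIT1 too, every low-dose library of both decoctions lay above every vehicle library.

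The names put vehicle and the decoctions in different sets, so these rises cannot be told apart from a difference between sets. Vehicle library 3 bore on the counts: without it 8 genes were called with Palmul-tang and 10 with Sibjeondaebo-tang, and without low-dose library 2 of each the counts were 9 and 10. The mitochondrial share was higher in vehicle, as given above, and with it as a covariate the counts were 8 and 12.

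At the low dose the ethanol extracts lay close to vehicle. Poria Cocos had 2 of the 40 genes higher and 2 lower, against 10.1% and 8.42% of all tested genes. Atractylodis Rhizoma had 4 higher and 5 lower, against 11.6% and 10.8%, Glycyrrhizae Radix 2 higher and 3 lower, against 9.31% and 8.27%, and Panax Ginseng 1 higher and 1 lower, against 6.91% and 6.06%. The shares of the list were near or below the background in all 4, and the medians ran from -0.069 to -0.001. STAT2 rose in each of the 4, by 0.27 (SE 0.08), 0.29 (SE 0.08), 0.35 (SE 0.08) and 0.34 (SE 0.08), and SAMD9 fell in each, at -0.31 (SE 0.06), -0.29 (SE 0.06), -0.31 (SE 0.06) and -0.21 (SE 0.06). The 4 comparisons share the same vehicle libraries. IFITM3 was lower with Poria Cocos and Atractylodis Rhizoma, ISG15 higher with Atractylodis Rhizoma and Glycyrrhizae Radix, and BST2 higher with Poria Cocos and Atractylodis Rhizoma. IFI35 rose with Atractylodis Rhizoma, EIF2AK2 fell with Atractylodis Rhizoma and Glycyrrhizae Radix, DTX3L fell with the same pair and PARP9 fell with Atractylodis Rhizoma. Vehicle library 3 again bore on these counts, which were 1, 3 and 3 without it for Poria Cocos, Atractylodis Rhizoma and Glycyrrhizae Radix. Poria Cocos had 2 calls without low-dose library 2. Under a mitochondrial-share covariate Poria Cocos had 2 and Atractylodis Rhizoma 1, and Panax Ginseng had 1 without vehicle library 2 or without low-dose library 2 or 3.

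At the high dose of the decoctions fewer genes were above vehicle. Palmul-tang had 6 of the 40 genes higher than vehicle and 1 lower, against 11.7% and 9.95% of all tested genes, and Sibjeondaebo-tang 5 higher and 3 lower, against 14.2% and 13.1%. The shares of the list called higher, 15% and 12.5%, stood near the background, and those called lower stood below it. IFI27, ISG15, BST2, STAT2 and OAS3 rose with both, by 0.44, 0.37, 0.27, 0.28 and 0.23 with Palmul-tang and 0.57, 0.34, 0.26, 0.33 and 0.27 with Sibjeondaebo-tang. MX1 rose with Palmul-tang, at 0.45 (SE 0.17, adjusted p = 0.048), and had a similar value with Sibjeondaebo-tang that missed the threshold, 0.42 (SE 0.17, adjusted p = 0.056). SAMD9 fell with both, and IFITM3 and IFITM2 fell with Sibjeondaebo-tang, at -0.53 (SE 0.13, adjusted p = 0.0013) and -0.38 (SE 0.11, adjusted p = 0.0055). The medians were 0.054 and 0.102, the Palmul-tang count was 4 without high-dose library 2, and both counts were 3 under a mitochondrial-share covariate.

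At the high dose, 3 of the ethanol extracts had calls below vehicle and none above. Poria Cocos had 12 of the 40 genes lower, against 11.6% of all tested genes called lower and 13.4% called higher. Atractylodis Rhizoma had 14 lower, against 10.6% and 11.9%, and Panax Ginseng 9 lower, against 8.57% and 10.3%. The count higher was 0 in each by edgeR and by DESeq2. At an unadjusted p below 0.05, 1, 1 and 0 were higher, against 18.2%, 17.4% and 15.8% of all tested genes. IFITM3, IRF9, SAMD9, EIF2AK2, PARP9 and PARP14 fell in all 3, which were compared with the same vehicle libraries. IFITM3 was at -0.54 (SE 0.12, adjusted p = 0.00084) with Poria Cocos, -0.81 (SE 0.13, adjusted p = 6.4e-06) with Atractylodis Rhizoma and -0.65 (SE 0.13, adjusted p = 0.00028) with Panax Ginseng. IRF9 was at -0.57 (SE 0.12, adjusted p = 0.00035), -0.62 (SE 0.12, adjusted p = 0.00017) and -0.57 (SE 0.13, adjusted p = 0.00077) in the same order. Every high-dose library of the 3 extracts lay below every vehicle library in both genes.

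Further falls against vehicle were those of OAS2 with Poria Cocos (-0.74, SE 0.27, adjusted p = 0.036) and Atractylodis Rhizoma (-1.03, SE 0.28, adjusted p = 0.0057), of IFIT1 with Atractylodis Rhizoma (-0.56, SE 0.18, adjusted p = 0.015) and Panax Ginseng (-0.62, SE 0.18, adjusted p = 0.012), and of IFITM2 with Atractylodis Rhizoma (-0.40, SE 0.10, adjusted p = 0.004) and Panax Ginseng (-0.39, SE 0.11, adjusted p = 0.0071). HERC6 fell with Poria Cocos (-0.40, SE 0.14, adjusted p = 0.025) and ISG20 with Atractylodis Rhizoma (-0.46, SE 0.16, adjusted p = 0.031). IFI44L, under 1 CPM, fell with Poria Cocos and Panax Ginseng, RSAD2 and IFIT2 with Atractylodis Rhizoma, DDX58 and DTX3L with Poria Cocos and Atractylodis Rhizoma, and SP100 with Poria Cocos. Without vehicle library 2 the counts were 7, 8 and 3, and for Panax Ginseng they were 4 or 5 without high-dose library 1 or 2. A mitochondrial-share covariate left 6 calls in each of the 3.

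High-dose Glycyrrhizae Radix had 11 of the 40 genes above vehicle and 12 below, against 18.8% and 15.5% of all tested genes. OAS1, STAT2, ISG20, IFI35, IRF1, IRF7, IFIT5, OAS3, ISG15, BST2 and SAMD9 rose, from 0.55 for OAS1 to 0.26 for SAMD9. OAS2, IFI44, DDX60, IFIT1, IFI6, IFITM3, HERC6, OASL, EIF2AK2, TRIM21, DTX3L and PARP9 fell. The 5 largest falls were -0.91 (SE 0.29, adjusted p = 0.011) for OAS2, -0.84 (SE 0.15, adjusted p = 2.1e-05) for IFI44, -0.84 (SE 0.16, adjusted p = 5.8e-05) for DDX60, -0.71 (SE 0.18, adjusted p = 0.0019) for IFIT1 and -0.69 (SE 0.20, adjusted p = 0.0064) for IFI6. Leaving out 1 library gave 20 to 23 calls.

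High doses were compared directly within the sets. Palmul-tang and Sibjeondaebo-tang differed in 0 of the 40 genes and in 0 of all tested genes by edgeR (0% in either direction), and DESeq2 called 0. At an unadjusted p below 0.05 there were 0 of the 40, against 3.32% of all tested genes higher and 2.23% lower with Palmul-tang. Poria Cocos and Atractylodis Rhizoma differed in 0 of the 40 by edgeR and by DESeq2, against 0.535% of all tested genes higher and 0.444% lower with Poria Cocos. At an unadjusted p below 0.05, 7 of the 40 were higher and 2 lower, against 4.87% and 5.06% of all tested genes. Glycyrrhizae Radix at 350 µg/mL had 13 of the 40 genes above Panax Ginseng at 500 µg/mL and 2 below it, against 13.3% and 9.98% of all tested genes, and these doses are not matched. The largest differences were 0.79 (SE 0.15, adjusted p = 7.2e-05) for ISG20, -0.63 (SE 0.17, adjusted p = 0.0033) for DDX60, 0.61 (SE 0.09, adjusted p = 2.3e-07) for OAS1, 0.54 (SE 0.05, adjusted p = 1.9e-12) for IRF1 and 0.54 (SE 0.10, adjusted p = 3.9e-05) for IFIT5. Each of the 4 transcription factors was higher with Glycyrrhizae Radix.

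Of 16 tested genes for interferon receptors and signalling, edgeR and DESeq2 called 0 in the pooled decoctions. There 1 was lower at an unadjusted p below 0.05 and 0 higher, against 5.25% and 5.58% of all tested genes. In the pooled ethanol extracts 1 of the 16 rose and 1 fell, against 11.3% and 10.1% of all tested genes. IFNGR1, a subunit of the interferon gamma receptor, was the riser, at 0.14 (SE 0.03, adjusted p = 0.00064). With Glycyrrhizae Radix 3 of the 16 rose and 2 fell, near the 14% and 10.9% of all tested genes. The receptor subunits IFNGR1 and IFNGR2 rose there, at 0.40 (SE 0.06, adjusted p = 2.6e-06) and 0.39 (SE 0.07, adjusted p = 3e-05), JAK1 rose at 0.12 (SE 0.04, adjusted p = 0.024), and TYK2 fell at -0.13 (SE 0.05, adjusted p = 0.048). The medians of the list were -0.003, -0.01 and -0.006 in these 3 comparisons. IFNE, the 1 interferon tested, was called in none of them, with -0.04, -0.07 and -0.07. Against vehicle IFNE was called lower at the high dose of every replicated extract except Atractylodis Rhizoma. Those changes ran from -0.62 (SE 0.12, adjusted p = 8.5e-05) with Poria Cocos to -0.36 (SE 0.12, adjusted p = 0.016) with Glycyrrhizae Radix. At the low dose it was called lower with the decoctions, Poria Cocos and Atractylodis Rhizoma. A difference between sets cannot be told apart here either.

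Of 17 tested genes for nucleic acid sensing, TLR3, the endosomal sensor of double-stranded RNA, fell in the pooled decoctions at -0.38 (SE 0.10, adjusted p = 0.033). In the pooled ethanol extracts 3 fell and 3 rose, with 10.1% of all tested genes called lower and 11.3% called higher: DHX58, a regulator of RIG-I (-0.28, SE 0.08, adjusted p = 0.0078), STING1, the adaptor of the DNA sensor cGAS (-0.26, SE 0.04, adjusted p = 1.4e-06), and MYD88 fell, and TICAM1, the adaptor of TLR3 (0.17, SE 0.04, adjusted p = 0.0021), TRAF3 and TBK1 rose. The medians were -0.009 and -0.008 in the 2 pools. Of 28 tested genes in a further list of interferon-stimulated genes, edgeR and DESeq2 called 0 in the pooled decoctions. There 8 were lower at an unadjusted p below 0.05 and 0 higher, against 5.25% and 5.58% of all tested genes. In the pooled ethanol extracts 6 of the 28 fell and 0 rose, against the same 10.1% and 11.3%. At an unadjusted p below 0.05, 9 were lower and 1 higher, against 15.1% and 16.4% of all tested genes, and DESeq2 made 6 calls. The largest falls were those of MX2 (-0.52, SE 0.16, adjusted p = 0.011), SP110 (-0.25, SE 0.07, adjusted p = 0.0026) and PARP10 (-0.23, SE 0.06, adjusted p = 0.0038). Its medians were -0.121 and -0.078, against -0.206 and -0.128 for the 40 genes and -0.003 over all tested genes in both pools. With Glycyrrhizae Radix 5 of the 28 were higher and 3 lower, near the 14% and 10.9% of all tested genes.

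Angelicae Gigantis Radix had 1 library per dose and so no test. Its high-dose library lay below its low-dose library for 30 of the 40 genes (75%), against 50.4% of all tested genes, and the median log2 difference was -0.12. IFITM3 stood at 11.5, 9.56 and 7.77 CPM and IFI6 at 5.60, 6.66 and 2.97 CPM from low to high dose. IFIT1 went from 4.05 to 3.63 and 3.22 CPM and IFI27 from 9.50 to 8.35 and 7.67 CPM, while DDX60 was at 3.66, 5.19 and 4.60 CPM. With 1 library each, these differences have no replicate check.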

How the data were processed

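RNA from HT29 cells was sequenced with a strand-specific kit in 100-base paired ends, per the labels' protocols. The authors deposited expected counts per gene, for which the submitters' processing notes name FastQC 0.11.9, Trim Galore 0.6.5, STAR 2.7.3a, RSEM 1.3.3 and the builds hg38 and GRCh38. No source used here names the annotation release. RSEM divides reads shared by related genes by an estimate, and 7.7% to 9.78% of values per library were not whole. 213 further columns of the table were not used. The expected counts were rounded and 56558 of 60675 identifiers were given symbols from GENCODE 29.

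edgeR 4.0.16 (R 4.3.3, limma 3.58.1; TMM factors 0.956 to 1.031, filterByExpr, quasi-likelihood F test) was fitted once to the 57 libraries of 19 groups, with 38 residual degrees of freedom. A call is a Benjamini-Hochberg adjusted p below 0.05 over all 16445 tested genes. DESeq2 1.42.0 and the fits in the closing section were alternatives, and the procedure was tested on simulated data. CPM were taken over the TMM-scaled total. Replicates of every group differed by more than sampling noise. The 40 genes, the other lists and the comparisons were chosen with earlier results of these data known. All 40 genes are named by role; values per library are given for 14 of them with repeated or larger calls or high levels and for others where a result turns on them, and each other list names up to 3 genes with the largest called changes, plus further ones named after their values were seen. 1 gene of the receptor and signalling list is not reported here.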

Additional observations from a re-analysis of the deposited data

Results flagged for a closer look

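The high against low dose difference of some genes differed between extracts by a test of that difference itself, edgeR's quasi-likelihood test with adjustment over all tested genes. Between the mean of the 2 decoctions and the mean of the 4 ethanol extracts, the log2 dose difference differed by -0.275 for IRF7, -0.266 for OAS1, -0.233 for SAMD9 and -0.155 for IRF1. Among all 6 extracts, the adjusted p was 8.9e-09 for IRF1, 2.5e-08 for SAMD9, 2.1e-05 for OAS1, 0.003 for IRF7, 0.004 for IFI44, 0.0071 for IFIT5, 0.0078 for OAS3, 0.021 for DDX60, 0.024 for OASL and 0.041 for ISG20. For IRF1, SAMD9, OAS1, IRF7, IFIT5, OAS3 and ISG20 the extract that stood apart upward was Glycyrrhizae Radix, and for IFI44, DDX60 and OASL the same extract had the lowest value. Glycyrrhizae Radix was given at 14 and 350 µg/mL and the other 5 at 20 and 500 µg/mL.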

How the results depend on the processing

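The 25 counts of called genes were recomputed under 291 alternative settings, of which 222 lay within 1.5 times the main count and 69 did not. The 91 named fold changes had 1056 alternatives, of which 851 kept direction and call, 205 kept direction without the call and 0 turned sign. For the counts outside that range the cause was not tested beyond each setting's construction. Without a filter on low counts, Palmul-tang high against low had 2 calls, Sibjeondaebo-tang 9, Poria Cocos 6, Panax Ginseng 10, the pooled decoctions 15, Glycyrrhizae Radix low against vehicle 8 and the high doses of Poria Cocos against Atractylodis Rhizoma 1. With the libraries of a comparison fitted alone, the dose comparison had 0 calls for Sibjeondaebo-tang (13 at an unadjusted p below 0.05), 1 for Poria Cocos, 2 for Atractylodis Rhizoma and 4 for the pooled decoctions. In that fit Panax Ginseng had 4 calls at high dose and 1 at low dose against vehicle, Poria Cocos 2 at low dose against vehicle, and Poria Cocos against Atractylodis Rhizoma 1. DESeq2 called 2 for Sibjeondaebo-tang high against low. With the mitochondrial share as a covariate, Poria Cocos high against low had 1, the high doses against vehicle 3 for Palmul-tang, 3 for Sibjeondaebo-tang, 6 for Poria Cocos and 6 for Atractylodis Rhizoma, and the low doses 8 for Palmul-tang, 2 for Poria Cocos and 1 for Atractylodis Rhizoma. Without the Glycyrrhizae Radix groups, an alternative added after seeing the data, the contrast of decoctions with ethanol extracts and the test over all extracts had 0 calls each.

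Leaving out 1 library at a time gave these ranges of calls. For high against low they were 0 to 0 for Palmul-tang, 0 to 3 for Sibjeondaebo-tang, 0 to 3 for Poria Cocos, 0 to 3 for Atractylodis Rhizoma, 12 to 17 for Glycyrrhizae Radix and 1 to 4 for Panax Ginseng. For high dose against vehicle they were 4 to 7, 7 to 9, 7 to 12, 8 to 15, 20 to 23 and 3 to 9 in the same order, and for low dose against vehicle 8 to 17, 10 to 18, 1 to 5, 3 to 9, 3 to 7 and 1 to 3. The direct high-dose comparisons gave 0 to 0, 0 to 0 and 13 to 14. Leaving out a replicate number gave 1 to 3 for the pooled decoctions, 15 to 18 for the pooled ethanol extracts, 0 to 2 for their contrast and 3 to 6 for the test over all extracts. Where a count was 0, edgeR had 9 to 18 of the 40 genes at an unadjusted p below 0.05 for Palmul-tang, 11 for Sibjeondaebo-tang, 11 to 13 for Poria Cocos, 10 for Atractylodis Rhizoma and 6 for the contrast.

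The replicate numbers were not taken as pairs in the main fit. In none of the 21 comparisons of 2 groups were all same-numbered correlations of deviations over 0.1, with lowest values from -0.11 to 0.063. Every library correlated best with its own number in Sibjeondaebo-tang high against low and low against vehicle. In Panax Ginseng high against low 5 libraries did, with correlations of 0.063, 0.071 and 0.189. Pairing in these comparisons is therefore not settled. With a replicate block, Sibjeondaebo-tang high against low had 2 calls and Panax Ginseng 5, and the other counts stayed within 1.5 times. Genes under 1 CPM (IFITM1, HERC5, XAF1, IFI44L and RSAD2) rest on few counts at these depths.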
